A study of Mus musculus with 5 samples.

Results

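The IGF1 axis of the mouse temporomandibular joint (TMJ) disc was followed through 8 genes: the growth factor Igf1, its receptor Igf1r, and the 6 IGF binding proteins Igfbp2, Igfbp3, Igfbp4, Igfbp5, Igfbp6 and Igfbp7. They were taken by gene symbol among the 27998 genes of the deposited count matrices, and were chosen with earlier results of these data known. The TMJ disc is the pad of fibrocartilage on which the jaw joint moves. Disc cells had been profiled by 10x Genomics 3′ single-cell RNA sequencing in 5 libraries, 1 per condition, so no difference between conditions has a replicate check and no test between libraries was possible. The mice were C57BL/6 and labelled wild type. Normal discs came from males at 3 w, 16 w and 78 w, and from pups of both sexes at 3 d. By the study's methods, the injured discs came from mice 7 weeks old, 2 weeks after a puncture at the age of 5 weeks. No uninjured library of that age is among those analysed, so the injured library was set beside the 3 w and 16 w libraries, and injury, age and library cannot be told apart. The study's methods describe the injury in Myh11-CreER; Tm fl/- mice, in which a Cre under the Myh11 promoter, active in mural cells, switches on a tdTomato reporter, whereas the label of the injured library gives wild type.

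IGF1 is a secreted growth factor that promotes the growth of cartilage and other skeletal tissue, and it signals through the tyrosine kinase receptor encoded by Igf1r. Outside the cell most IGF is held by binding proteins, which extend its life, keep it from the receptor, or deliver it to matrix and cell surface, and proteases such as PAPP-A release it again. The binding proteins differ in affinity and in place: IGFBP4 is mainly an inhibitor that PAPP-A cleaves, IGFBP5 binds to extracellular matrix, IGFBP6 prefers IGF2, and IGFBP7 binds IGFs weakly and is abundant around blood vessels.

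In mm10 coordinates, Igf1 (ENSMUSG00000020053) lies at chr10:87858265-87937042 and Igf1r (ENSMUSG00000005533) at chr7:67952827-68233668, both on the plus strand. Igfbp3 (ENSMUSG00000020427, chr11:7206086-7213923, minus strand) and Igfbp4 (ENSMUSG00000017493, chr11:99041244-99054392, plus strand) lie far apart on 1 chromosome. Igfbp6 (ENSMUSG00000023046) is at chr15:102144362-102149511 on the plus strand and Igfbp7 (ENSMUSG00000036256) at chr5:77349240-77408041 on the minus strand. Igfbp2 (ENSMUSG00000039323, chr1:72824503-72852474, plus strand) and Igfbp5 (ENSMUSG00000026185, chr1:72857932-72874884, minus strand) are neighbours that converge, with 5457 bases and 0 annotated genes between their ends. The values below show this pair moving in opposite directions with age.

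The promoters of the binding proteins that led in at least 1 library (Igfbp4, Igfbp5 and Igfbp7), and that of Igfbp2, which had the largest difference between libraries, are shown because these genes carry the change of the main binding protein. Each is the 250 bases before a RefSeq start (GRCm38.p6, the mm10 assembly), 5′ to 3′ on the gene's own strand: chr1:72824230-72824479 for Igfbp2, chr11:99040994-99041243 for Igfbp4, chr1:72874866-72875115 for Igfbp5 and chr5:77408046-77408295 for Igfbp7. Capitals mark matches, on either strand, to a TATA box (TATAAA), a GC box (GGGCGG) or a CCAAT box (CCAAT).
Igfbp2: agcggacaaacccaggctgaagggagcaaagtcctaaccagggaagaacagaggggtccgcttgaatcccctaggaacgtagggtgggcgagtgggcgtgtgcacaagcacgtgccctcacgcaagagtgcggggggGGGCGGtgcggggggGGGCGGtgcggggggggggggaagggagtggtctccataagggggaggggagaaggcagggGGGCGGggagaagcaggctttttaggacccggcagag
Igfbp4: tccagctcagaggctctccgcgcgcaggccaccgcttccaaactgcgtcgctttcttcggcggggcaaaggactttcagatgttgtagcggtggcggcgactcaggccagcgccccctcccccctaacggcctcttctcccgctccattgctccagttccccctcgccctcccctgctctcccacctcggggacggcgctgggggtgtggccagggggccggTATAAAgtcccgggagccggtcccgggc
Igfbp5: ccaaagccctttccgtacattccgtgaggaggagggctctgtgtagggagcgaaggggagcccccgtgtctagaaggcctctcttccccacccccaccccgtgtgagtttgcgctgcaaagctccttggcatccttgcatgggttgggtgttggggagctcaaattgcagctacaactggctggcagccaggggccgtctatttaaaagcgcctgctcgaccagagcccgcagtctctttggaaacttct
Igfbp7: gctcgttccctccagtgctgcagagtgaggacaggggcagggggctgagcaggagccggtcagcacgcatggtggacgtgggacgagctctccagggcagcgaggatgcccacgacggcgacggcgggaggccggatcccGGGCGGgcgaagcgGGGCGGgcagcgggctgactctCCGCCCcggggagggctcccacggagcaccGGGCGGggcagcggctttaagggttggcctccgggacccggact
The Igfbp4 window held 1 TATA box, 28 bases before the start, a motif found in 12.4% of 32851 mouse promoter windows of this length. The Igfbp2 window held 3 GC boxes and the Igfbp7 window held 4, where 32.7% of all windows held at least 1. RefSeq gives another start for Igfbp2, and its window (chr1:72825137-72825386, with a GC content of 56.4%) held none of the motifs. The Igfbp5 window held none of the 3 motifs, and 33.8% of all windows held a CCAAT box. The GC content of the windows was 67.2% for Igfbp2, 69.2% for Igfbp4, 58.8% for Igfbp5 and 74% for Igfbp7, against a median of 52.4% over all windows. These matches describe the letters of the windows and were not tied to the levels.

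The libraries held 8467 to 15169 barcodes and 31585993 to 125427849 UMIs. The injured library was the shallowest, with a median of 3299 UMIs per retained cell against 7721 to 12496 in the normal libraries. Between 19 and 39 barcodes were shared by each pair of libraries, at most 0.415% of the smaller one. Clusters were named from marker genes, and each name is to be read as "-like". Stromal (fibroblast) cells made up 41792 of 51688 retained cells, in 3 clusters: cluster 1 with cartilage-type markers such as Chad and Col2a1 (22609 cells), cluster 2 with tendon-type markers such as Tnmd and Kera (11067 cells) and cluster 3 with adventitial-type markers such as Pi16 and Clec3b (8116 cells). The other named classes were synovial lining fibroblasts (1180 cells), endothelial cells (3353), mural cells (1258), macrophages (1463), Schwann cells (103) and erythroid cells (619). The erythroid class served as a rough background, but only 71.1% of its cells held an erythroid marker. Cluster 5 (1920 cells of few UMIs, led by muscle genes) stayed unnamed. The IGF genes were kept out of the clustering, although Igfbp2 ranked among the 10 leading genes of cluster 3.

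Levels are sums of UMIs per class, scaled to all UMIs of that class and library and given as CPM. Since 3′ libraries give about 1 tag per transcript, they were not scaled by gene length, and how well each gene is captured may differ. All intervals are exact 95% intervals and cover counting error only, not the spread between mice. Clusters 2 and 3 held most stromal cells at 3 d (4398 and 4663 cells, against 1870 in cluster 1). Cluster 1 held most in each later library (4489 to 5961 cells). Values within the clusters therefore follow many of the pooled stromal ratios. A pooled ratio given alone may still differ between the clusters.

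Igf1 was high at 3 d and low afterwards. In stromal cells its level was 509 CPM at 3 d (interval 505 to 513), 42.9 at 3 w, 27.8 at 16 w, 53.6 at 78 w and 214 in the injured discs (209 to 220). The 3 d and the injured library stood above the other 3. Relative to 3 d, Igf1 was 11.9-fold lower at 3 w (11.5 to 12.2) and 9.49-fold lower at 78 w. Under 7 alternatives to the cells, the weights and the scaling, the ratio of 78 w to 3 d lay between 0.103 and 0.306. The difference between 3 w and 3 d was present in each stromal cluster, at 22.6-fold in cluster 1, 4.25-fold in cluster 2 and 3.47-fold in cluster 3.

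Between 16 w and 78 w, pooled stromal Igf1 was 1.92-fold higher (1.83 to 2.02), but the clusters did not move together. In cluster 1 the ratio of 78 w to 16 w was 0.8, whereas it was 2.69 in cluster 2 and 2.05 in cluster 3. In the injured library stromal Igf1 was 4.99-fold higher than at 3 w (4.8 to 5.18) and 7.69-fold higher than at 16 w (7.32 to 8.08). All 3 clusters were higher in the injured library than at 16 w, by 5.02-fold, 4.85-fold and 8.92-fold.

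Adventitial-type cells had the highest Igf1 level of the 3 clusters in each library. In cluster 3 its level was 709, 204, 108, 222 and 966 CPM from 3 d to 78 w and in the injured library, in that order. In cluster 1 it was 198, 8.78, 9.82, 7.86 and 49.3. The ratio of cluster 3 to cluster 1 was 3.58 at 3 d and then 23.2, 11, 28.3 and 19.6. In the injured library cluster 3 exceeded its own 3 d level and gave 52.4% of all Igf1 UMIs from 11.1% of all UMIs.

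The share of stromal cells with an Igf1 UMI followed the levels. After each cell was thinned to 1000 UMIs it was 30.3% at 3 d, 4.5% at 3 w, 2.9% at 16 w, 4.5% at 78 w and 11.9% in the injured library, where 346 shallower stromal cells were left out against 7 to 48 in the others. Without thinning the shares were 68.2%, 19.5%, 12.3%, 16.7% and 24.0%. In thinned erythroid cells, which should lack the gene, Igf1 was detected in 3.7% of 299 cells at 3 d and 2.5% of 40 in the injured library. At 3 w and 78 w only 20 and 27 such cells remained, too few to give a background for the low stromal shares there.

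Igf1r varied least. Its stromal level was 67.8 CPM at 3 d, 111 at 3 w, 124 at 16 w, 103 at 78 w and 66.5 in the injured library. The 3 d and injured values did not differ beyond counting error (ratio 1.02, 0.968 to 1.07). Igf1r was 1.64-fold higher at 3 w than at 3 d (1.59 to 1.69), and the ratio of the injured library to 16 w was 0.538 (0.512 to 0.565). No pooled stromal comparison of Igf1r passed 2-fold, although cluster 1 was 2.08-fold higher at 3 w than at 3 d, and cluster 3 was 2.38-fold lower in the injured library than at 3 w. In the pooled stroma the receptor was thus lowest in the 2 libraries in which Igf1 was highest, which is a description of 5 libraries. This order did not hold throughout the adventitial-type cells. In their fine cluster led by Pi16, Mfap5 and Clec3b, Igf1r was 106, 112, 67.8, 83 and 49.5 CPM from 3 d to the injured library. In another adventitial-type fine cluster, of 1847 cells at 3 d, it was 56.1, 111, 107, 86 and 52.5 CPM.

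**Figure D1:**
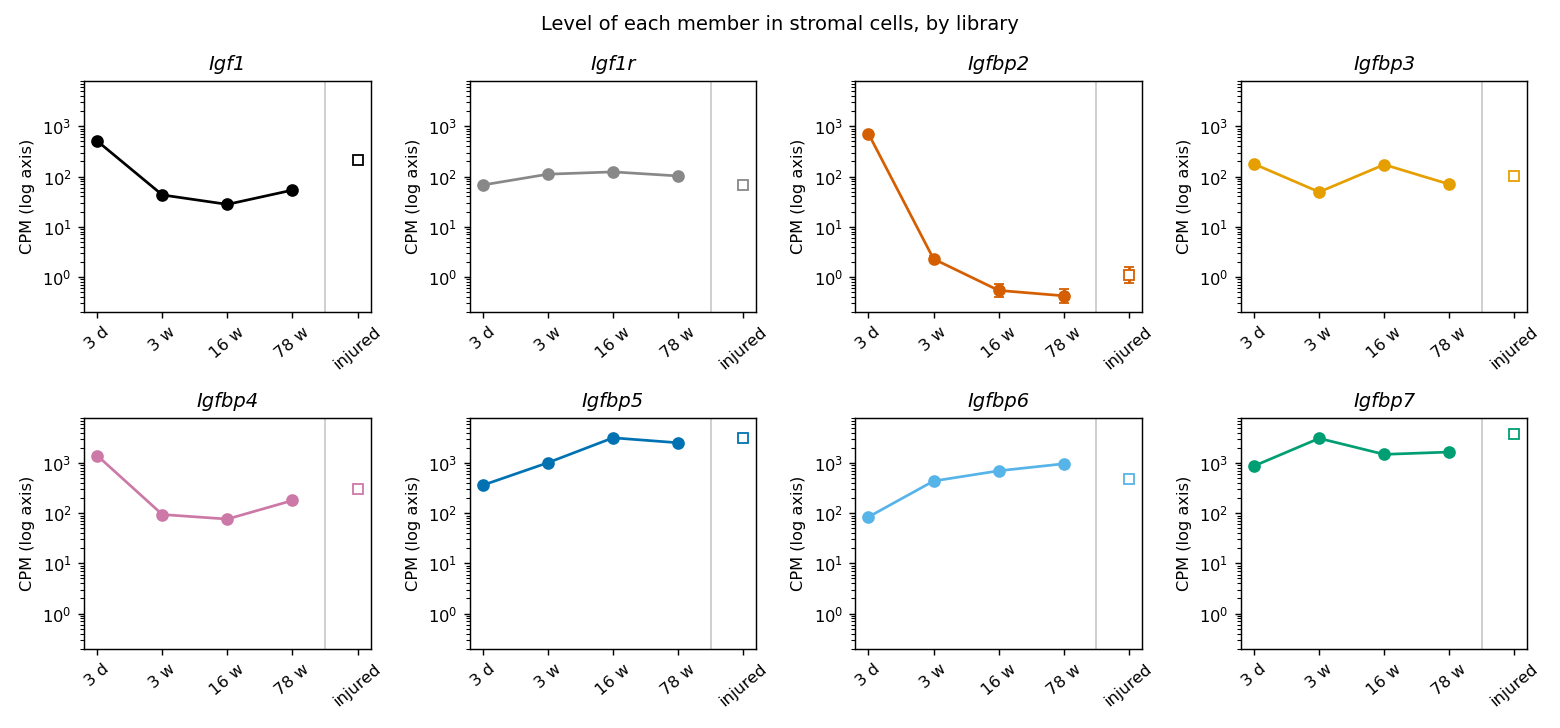
Level of each of the 8 genes in stromal cells (CPM, log axis) by library, with normal discs as joined circles and the injured discs as an open square; bars are exact 95% counting intervals and are mostly smaller than the symbols. Igfbp2 goes from 711 CPM at 3 d to 0.419 at 78 w, Igfbp5 and Igfbp6 are above their 3 d levels in each later library, and Igf1r stays between 66.5 and 124.

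Igfbp2, a binding protein of fetal and newborn tissue that can also bind integrins, was found in stromal cells almost only in the 3 d library. Its stromal level was 711 CPM at 3 d (72635 UMIs), 2.28 at 3 w (257 UMIs), 0.537 at 16 w (43 UMIs), 0.419 at 78 w (38 UMIs) and 1.1 in the injured library (31 UMIs). The level at 3 w was 312-fold below that at 3 d (276 to 355), and 78 w was 1697-fold lower than 3 d (1237 to 2399). The 16 w and 78 w levels did not differ beyond counting error (ratio 0.781, 0.491 to 1.24). Each stromal cluster was lower at 3 w than at 3 d, by 93-fold to 270-fold. Of thinned stromal cells 36.2% held an Igfbp2 UMI at 3 d and at most 0.2% in any other library. In these cells the injured discs, with 1.1 CPM, did not approach the newborn level.

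Igfbp3, the main carrier of IGF in the circulation, had no single direction with age. Its stromal level was 178 CPM at 3 d, 49.1 at 3 w, 173 at 16 w, 70.1 at 78 w and 104 in the injured library. The level at 3 w was 3.61-fold below that at 3 d (3.51 to 3.73), 3.52-fold higher at 16 w than at 3 w (3.41 to 3.63) and 2.46-fold lower at 78 w than at 16 w (2.39 to 2.54). The last pair of differences had the same direction in all 3 clusters. The first did not: the ratio of 3 w to 3 d was 0.11 in cluster 1, 1.89 in cluster 2 and 0.793 in cluster 3. With each cluster given equal weight, the ratio of 3 w to 3 d was 0.9 and that of 78 w to 3 d turned from 0.395 to 1.28, so these comparisons depend on how the clusters are pooled. Igfbp3 was low in the cartilage-type cells, at 3.68 to 38.4 CPM over the 5 libraries, and reached 645 CPM at 16 w in the adventitial-type cells. The ratio of cluster 3 to cluster 1 was 9.26 at 3 d, 66.7 at 3 w, 16.8 at 16 w, 36.1 at 78 w and 14.7 in the injured library.

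Igfbp4, the inhibitory binding protein that PAPP-A cleaves, had the same order of libraries as Igf1 in the pooled stroma. Its level was 1406 CPM at 3 d (interval 1399 to 1414), 94.1 at 3 w, 76.5 at 16 w, 180 at 78 w and 300 in the injured library (294 to 307). The level at 3 w was 14.9-fold below that at 3 d (14.7 to 15.2). The drop was 20.1-fold in cluster 1, 9.77-fold in cluster 2 and 4.55-fold in cluster 3. From 16 w to 78 w it was 2.35-fold higher (2.28 to 2.42), and here each cluster moved the same way, by 2.14-fold, 2.5-fold and 2.04-fold. In the injured library it was 3.19-fold higher than at 3 w and 3.93-fold higher than at 16 w. Adventitial-type cells held the highest level in each library (1698, 373, 440, 900 and 1008 CPM), and their ratio to cartilage-type cells went from 1.76 at 3 d to 15.2 at 16 w. In these cells the order differed from that of Igf1, which was lower at 16 w than at 3 w. The pooled ratio of Igfbp4 at 16 w to 3 w was 0.813 and reached 1.03 under the 7 alternatives, so this part of the order depends on the processing. The thinned share of stromal cells with an Igfbp4 UMI was 66.2% at 3 d, 8.4% at 3 w, 6.2% at 16 w, 12.8% at 78 w and 20.9% in the injured library. In thinned erythroid cells it was 7.0% at 3 d.

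Igfbp5, the matrix-binding member, went the opposite way to its neighbour Igfbp2. Its stromal level was 362 CPM at 3 d (interval 358 to 366), 1016 at 3 w, 3183 at 16 w (3170 to 3195), 2535 at 78 w and 3131 in the injured library (3111 to 3152). It was 2.81-fold higher at 3 w than at 3 d, another 3.13-fold higher at 16 w, and 7-fold higher at 78 w than at 3 d (6.93 to 7.08). The difference between 78 w and 3 d was 6.84-fold in cluster 1, 11.5-fold in cluster 2 and 5.54-fold in cluster 3. The injured library was 3.08-fold above 3 w (3.06 to 3.11), and its ratio to 16 w was 0.984 (0.976 to 0.991). The fine clusters did not all follow the pool. In the adventitial-type fine cluster led by Pi16, Mfap5 and Clec3b, Igfbp5 was 541 CPM at 3 d and 545 at 3 w. In the same cells it was 1696 at 16 w and 1185 in the injured library. In the cartilage-type fine cluster marked by Clu and Chad it was 3283 at 16 w and 4161 in the injured library. Unlike Igf1, Igfbp3, Igfbp4 and Igfbp6, Igfbp5 was not concentrated in the adventitial-type cells, with a ratio of cluster 3 to cluster 1 between 0.488 and 1.29. Thinned stromal cells held an Igfbp5 UMI in 20.5% at 3 d, 36.0% at 3 w, 62.9% at 16 w, 53.3% at 78 w and 68.3% in the injured library.

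Igfbp6, which prefers IGF2, was higher at each later age. Its stromal level was 84.3 CPM at 3 d (interval 82.6 to 86.1), 438 at 3 w, 700 at 16 w, 966 at 78 w (960 to 973) and 481 in the injured library. It was 5.19-fold higher at 3 w than at 3 d (5.07 to 5.31), then 1.6-fold and 1.38-fold higher at the next steps, and 11.5-fold higher at 78 w than at 3 d (11.2 to 11.7). Within the clusters the difference between 78 w and 3 d was larger than in the pool, at 30-fold in cluster 1, 62.6-fold in cluster 2 and 21.1-fold in cluster 3. Adventitial-type cells, with the highest Igfbp6 level of the 3 clusters in each library, were the largest stromal cluster at 3 d and the smallest in each later library. Their Igfbp6 level was 149, 1180, 2688, 3135 and 999 CPM. The injured library was near 3 w (ratio 1.1, 1.08 to 1.12) and below 16 w (0.687, 0.674 to 0.7). Against 16 w the injured ratio was 0.985 in cluster 1, 0.549 in cluster 2 and 0.372 in cluster 3. As Igfbp6 went up with age, the other ligand of the family went down: stromal Igf2 was 1653 CPM at 3 d, 25.7 at 3 w, 15.3 at 16 w, 9.4 at 78 w and 5.19 in the injured library.

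Igfbp7 was abundant in each stromal cluster and differed by less than 2-fold between the 3 clusters of any library. Its stromal level was 875 CPM at 3 d, 3106 at 3 w (3095 to 3116), 1489 at 16 w, 1657 at 78 w and 3727 in the injured library (3704 to 3749). It was 3.55-fold higher at 3 w than at 3 d (3.52 to 3.57) and 2.09-fold lower at 16 w than at 3 w (2.07 to 2.1). The injured library, by the study's methods from an age between these, was 1.2-fold above 3 w and 2.5-fold above 16 w (2.48 to 2.52). The ratio of cluster 3 to cluster 1 stayed between 0.64 and 0.895. Igfbp7 was detected in 56.3%, 89.0%, 67.6%, 71.0% and 93.8% of thinned stromal cells in the same order of libraries. The remaining family member, Igfbp1, a liver protein, had 0 to 4 UMIs in the stromal cells of any library.

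**Figure D2:**
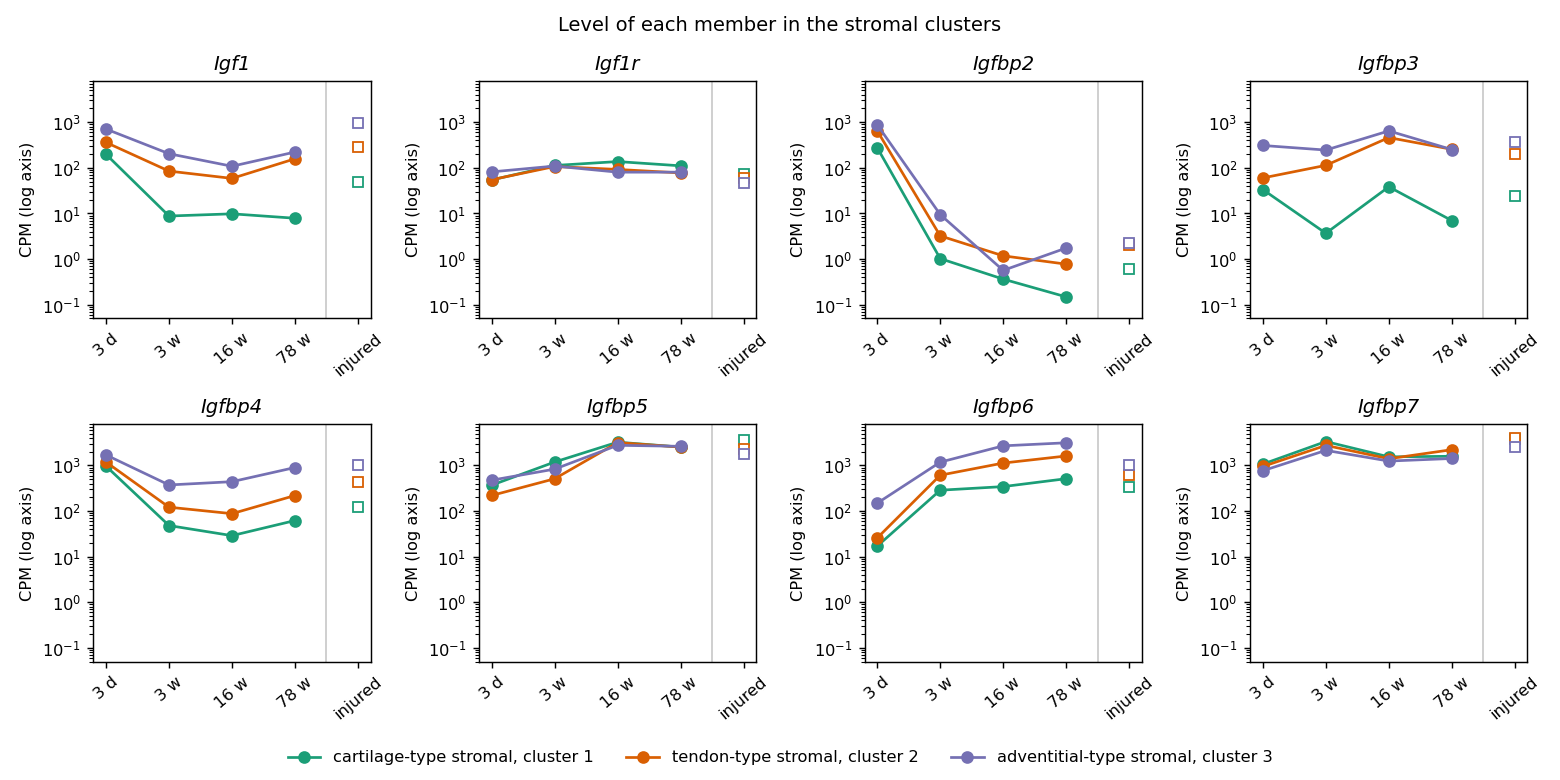
Level of each gene in the 3 stromal clusters (CPM, log axis) by library, with normal discs as joined circles and the injured discs as open squares. Igf1, Igfbp3, Igfbp4 and Igfbp6 are lowest in the cartilage-type cells of each library, by 11-fold or more against adventitial-type cells for Igf1 after 3 d. The lines of Igf1r and Igfbp7 lie close together.

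The main binding protein of the stroma differed between stages. Among the summed UMIs of Igfbp1 to Igfbp7 in stromal cells, Igfbp4 led at 3 d with 38.9% (38.7 to 39.0), ahead of Igfbp7 with 24.2% and Igfbp2 with 19.7%. At 3 w Igfbp7 led with 66.0% (65.9 to 66.1), ahead of Igfbp5 with 21.6%. At 16 w Igfbp5 led with 56.6% (56.5 to 56.8), ahead of Igfbp7 with 26.5%.

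At 78 w Igfbp5 was again first with 46.9% (46.7 to 47.0), Igfbp7 had 30.6% and Igfbp6 17.9%. In the injured library Igfbp7 led with 48.1% (47.9 to 48.3), ahead of Igfbp5 with 40.4%. The pooled stroma of the injured disc thus had the same leading protein as that of the 3 w disc. Its Igfbp5 share was larger than at 3 w and smaller than at 16 w.

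The order held in most single clusters. At 3 d the cartilage-type cells were led by Igfbp7 with 39.2% (Igfbp4 35.4%), unlike the other clusters, which were led by Igfbp4. At 78 w the adventitial-type cells were led by Igfbp6 with 37.6% (Igfbp5 31.5%), and at 16 w their Igfbp5 and Igfbp6 shares lay close together at 35.5% and 34.5%. In every other pairing of these clusters with a library the leading protein was that of the pooled stroma. At a finer clustering (resolution 0.5) there were further departures, of which some follow. Igfbp6 led at 16 w in the adventitial-type fine cluster led by Pi16, Mfap5 and Clec3b (2590 CPM, Igfbp5 1696). It also led at 78 w in a tendon-type fine cluster of 282 cells (2562 CPM, Igfbp7 2494). At 3 d Igfbp5 led in the fine cluster marked by Aoc2 and Slurp1 (1684 CPM, Igfbp7 878). In a cartilage-type fine cluster marked by Col2a1 and Ibsp, Igfbp7 led at 16 w (1584 CPM, Igfbp5 827) and 78 w (1587, Igfbp5 604). In the injured library Igfbp5 led in fine clusters marked by Aoc2 and Slurp1 (5289 CPM, Igfbp7 3916) and by Clu and Chad (4161, Igfbp7 3926).

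Counted per cell, the picture in the pooled stroma was similar except at 78 w. In stromal cells thinned to 1000 UMIs, Igfbp4 had the most UMIs in 31.1% of cells at 3 d, Igfbp7 in 66.1% at 3 w, Igfbp5 in 40.8% at 16 w and Igfbp7 in 54.3% in the injured library. At 78 w Igfbp7 led in 33.9% of cells and Igfbp5 in 31.9%, although Igfbp5 had more UMIs in all. Between 10.8% and 22.7% of cells had a tie, and 1.3% to 7.3% had no binding protein UMI. Among adventitial-type cells at 16 w, Igfbp6 led in 31.5% of thinned cells and Igfbp5 in 23.4%, although Igfbp5 had more UMIs in all.

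**Figure D3:**
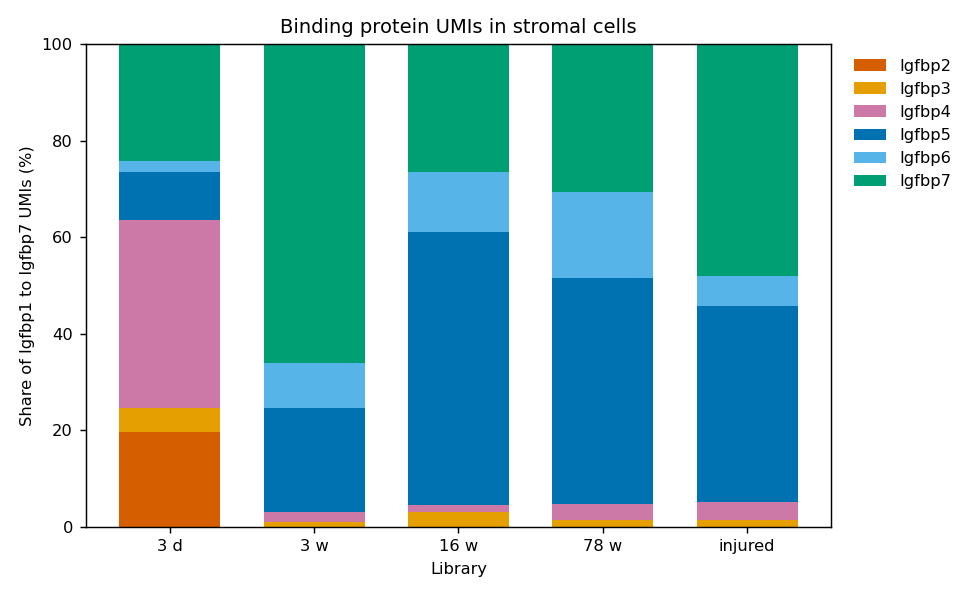
Share of each binding protein (%) among the UMIs of Igfbp1 to Igfbp7 in stromal cells, 1 bar per library; Igfbp1 is too low to be seen. The bars change from Igfbp4, Igfbp7 and Igfbp2 at 3 d (38.9%, 24.2% and 19.7%) to Igfbp7 at 3 w (66.0%) and Igfbp5 at 16 w and 78 w (56.6% and 46.9%), with Igfbp7 (48.1%) and Igfbp5 (40.4%) in the injured discs.

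The summed stromal level of the binding protein messages was 3617 CPM at 3 d, 4705 at 3 w, 5622 at 16 w, 5409 at 78 w and 7745 in the injured library. For each Igf1 UMI there were 7.1 binding protein UMIs at 3 d, 110 at 3 w, 202 at 16 w, 101 at 78 w and 36.2 in the injured library. In the adventitial-type cells of the injured library this number was 6.9, near the 6.0 of the same cells at 3 d, against 23.4 at 3 w and 71.8 at 16 w. These are ratios of messages and carry no information on binding.

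Read against all genes, the members moved often at the first step. From 3 d to 3 w, 7 of the 8 genes passed 2-fold in stromal cells (Igfbp5, Igfbp6 and Igfbp7 higher, Igf1, Igfbp2, Igfbp3 and Igfbp4 lower), where 35.3% of all counted genes did; a gene was counted with at least 100 UMIs in the higher library. From 3 w to 16 w, 4 of 8 did, against 11.0% of all genes. From 16 w to 78 w, 2 of the 7 members with enough UMIs did, against 3.32%. The members were chosen with earlier results of these data known, so these shares are set side by side as a description only.

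Over the whole span from 3 d to 78 w, 6 of 8 passed 2-fold, against 35.4% of all genes. The injured library differed past 2-fold from 3 w in 5 of 8 members, against 22.5% of all genes, with Igf1, Igfbp3, Igfbp4 and Igfbp5 higher and Igfbp2 lower. Of these, Igfbp3 and Igfbp2 each fell short of 2-fold under 2 of 7 alternatives, with a ratio down to 1.62 for Igfbp3 (equal weight for each stromal cluster) and up to 0.59 for Igfbp2 (median-of-ratios scaling). Against 16 w it did so in 3 of 7 members, all higher (Igf1, Igfbp4 and Igfbp7), against 20.1%. The injured library was the shallowest, and the median log2 ratio of all genes was -0.37 against 3 w and -0.31 against 16 w, while it lay between -0.17 and -0.04 in the comparisons of normal libraries. The members that were higher in the injured discs were so against this lower median, and the part of depth, age and library in these differences was not tested.

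Outside the stroma, reads of stromal marker genes set a background. Over 8 genes that mark the stroma (Prg4, Cilp, Cilp2, Comp, Chad, Fmod, Tnmd and Kera), endothelial cells held 17.7% to 21.9% of the stromal level, mural cells 19.5% to 36.6% and macrophages 16% to 27.5%. The level that this share of the stromal CPM would give is called the stromal-RNA level below. It is a sum over 8 genes that differed widely among themselves, so values are also read against the highest of the 8 shares where that matters. Whether these reads came from free RNA, doublets or the cells themselves was not tested. The lining fibroblasts express several of these marker genes themselves, so no such level could be set for them.

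Macrophages, the resident phagocytes of the joint, held Igf1 above that level in each library, though not clearly at 3 d. Their Igf1 level was 244 CPM at 3 d (stromal-RNA level 117), 213 at 3 w (11.8), 82.8 at 16 w (5.3), 83.1 at 78 w (8.59) and 188 in the injured library (48.6). At 3 w this was 4.96-fold the level of stromal cells, at 16 w 2.97-fold and at 78 w 1.55-fold, while at 3 d the ratio was 0.48 and in the injured library 0.878. At 3 d the single marker genes of the stroma reached 15.3% to 58.7% of their stromal level in macrophages, a range that takes in the Igf1 ratio, whereas in the other libraries the highest share was 23.3% to 65.2% and Igf1 lay above it. At 3 w macrophages gave 11% of all Igf1 UMIs from 2.32% of all UMIs. Igf1 was detected in 19.7% of thinned macrophages and 4.5% of thinned stromal cells of that library. The stroma still gave 86.3% to 93.3% of the Igf1 UMIs of each library. Macrophage Igf1r was 0.472 to 0.626 of the stromal level. At 3 w it lay below the highest single marker share (65.2%), so a level of the cells' own is not clear there.

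Endothelial cells, which line the vessels, had the highest Igfbp3 level of the named classes, although the adventitial-type and tendon-type stromal clusters were above them at 16 w (645 and 461 CPM). Their level was 833 CPM at 3 d (interval 812 to 855), 327 at 3 w, 339 at 16 w, 370 at 78 w and 366 in the injured library, against stromal-RNA levels of 8.71 to 37.8. The ratio to stromal cells was 4.69, 6.66, 1.96, 5.28 and 3.51 in the same order. Unlike in the stroma, endothelial Igfbp3 at 3 w, 16 w, 78 w and in the injured discs lay within 327 to 370 CPM. Thinned endothelial cells held an Igfbp3 UMI in 43.9% at 3 d and 14.1% to 24.9% in the other libraries, and thinned erythroid cells in 1.7% at 3 d. Igfbp7 led the binding proteins of endothelial cells in each library, at 2854, 2538, 2346, 2351 and 4131 CPM.

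Mural cells, the pericytes and smooth muscle of the vessel wall, had the highest Igfbp7 level of the named classes from 3 w on. Its level was 2767 CPM at 3 d, 5265 at 3 w, 3643 at 16 w, 3574 at 78 w and 5829 in the injured library, lowest at 3 d and highest in the injured library as in the stroma, at 1.56-fold to 3.16-fold the stromal level. Mural Igfbp4 showed no such drop after birth as in the stroma. It was 505 CPM at 3 d, 526 at 3 w, 466 at 16 w, 619 at 78 w and 483 in the injured library. At 3 d this lay at the stromal-RNA level (514), so a level of their own cannot be read there, while from 3 w on the stromal-RNA level was only 15.2 to 65.8. Mural Igfbp5 was 570, 532, 1905, 3314 and 1343 CPM, highest at 78 w and above the stromal-RNA level (132 to 686) in each library. Against the highest of the 8 marker genes it was above at 3 d, 3 w and 78 w only. At 16 w and in the injured library its ratio to the stroma was 0.598 and 0.429, where the highest gene reached 103.8% and 60.3% of its stromal level, so a level of their own is not clear there.

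Synovial lining fibroblasts were led by Igfbp5 in every library, with 45.2% to 74.1% of binding protein UMIs. Their Igfbp5 level was 2089 CPM at 3 d, 4125 at 3 w, 7543 at 16 w, 4274 at 78 w and 2542 in the injured library. At 3 d this was 5.77-fold the stromal level, and in the injured library it was below it (ratio 0.812). These cells numbered 79 to 482 per library. Igf1 was low in them, at 3.18 to 36.1 CPM after 3 d and 153 CPM at 3 d. Igfbp6 in endothelial cells, mural cells and macrophages (12.3 to 223 CPM) stayed near the stromal-RNA level, with the largest excess in endothelial cells at 3 w (149 against 77.6 CPM).

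Between 78 w and 3 d, Igfbp5 and Igfbp6 passed 2-fold upward and Igf1, Igfbp2 and Igfbp3 downward in each of these 4 classes. Past 2-fold were 5 of 8 members in lining fibroblasts (18.9% of all counted genes), 6 in endothelial cells (28.3%), 5 in mural cells (36.0%) and 6 in macrophages (24.7%). Since these classes hold reads of stromal marker genes, the counts cannot be treated as independent of the stroma. At 3 d, mural Igf1, Igfbp2 and Igfbp3 and endothelial Igfbp2 lay at or below the stromal-RNA level, and macrophage Igfbp2 and Igfbp3 near it. Endothelial Igf1 lay within the range of the single marker genes there (13.5% to 32.3% of the stromal level), as did macrophage Igf1 and Igfbp4 (15.3% to 58.7%). For all of these, a level of the cells' own cannot be read at 3 d. Igfbp6 stayed near the stromal-RNA level in endothelial cells, mural cells and macrophages, so its difference there cannot be told apart from that of the stroma. At 78 w endothelial cells held 18.2% and macrophages 16% of the stromal level of the marker genes. Igfbp5 led in 7.3% of thinned endothelial cells and 8.1% of thinned macrophages at that age, against 31.9% of stromal cells. Its difference in these 2 classes is therefore not read as the cells' own.

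**Figure D4:**
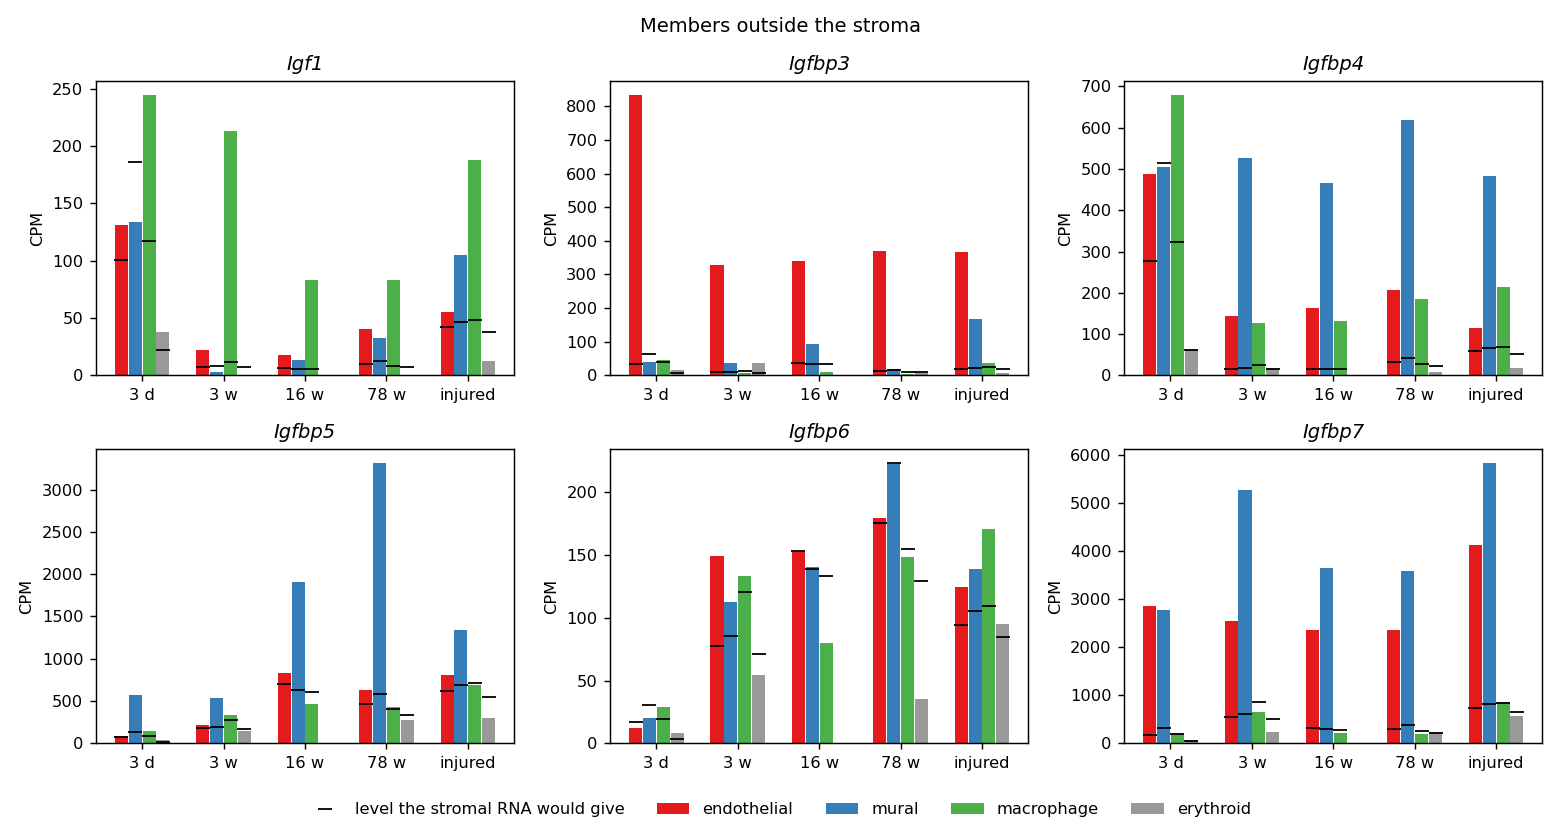
Level (CPM, linear axes from 0) of 6 genes in endothelial, mural, macrophage and erythroid cells by library, with a black dash at the level that stromal RNA would give. Macrophage Igf1, endothelial Igfbp3 and, from 3 w on, mural Igfbp4 stand above the dash (213 against 11.8 CPM for macrophage Igf1 at 3 w), while Igfbp6 lies near it; no erythroid bar is drawn at 16 w, where there were too few cells.

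Of 46 other genes of the pathway, taken from a list of ligands, receptors, partners, proteases, the growth hormone arm, adaptors and downstream kinases, 40 were counted from 3 d to 3 w in stromal cells, 9 higher and 7 lower past 2-fold. From 3 w to 16 w the numbers were 2 higher and 2 lower of 38, and from 16 w to 78 w 1 higher and 0 lower of 37. The injured library had 2 higher and 4 lower of 38 against 3 w, and 2 higher and 7 lower of 37 against 16 w. Over all counted genes the shares past 2-fold were 35.3%, 11.0%, 3.32%, 22.5% and 20.1% in the same order, and nothing is read about the pathway as a whole from these counts.

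Of the 7 proteases of binding proteins and their inhibitors, 4 were higher and 2 lower past 2-fold from 3 d to 3 w, where 35.3% of all counted genes passed. Pappa, which encodes PAPP-A and releases IGF from IGFBP4 and IGFBP5, was 104 CPM at 3 d, 324 at 3 w, 431 at 16 w, 332 at 78 w and 186 in the injured library, while Igfbp4 went the other way from 3 d to 3 w. Its paralog Pappa2 was 25.4 CPM at 3 d and 0.549 to 1.8 in the other libraries. Stc1, a secreted inhibitor of PAPP-A, was 6.83 CPM at 3 d, 0.682 at 3 w, 0.2 at 16 w, 0.221 at 78 w and 2.28 in the injured library. The other inhibitor in the list, Stc2, was instead higher after 3 d. Its level was 1.02, 4.93, 6.08, 4.69 and 6.05 CPM in the same order of libraries. Htra1, a serine protease that can degrade IGFBP5, was 609, 995, 1040, 2097 and 652 CPM, and was the only one of the 37 counted pathway genes past 2-fold from 16 w to 78 w (2.02-fold).

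Among receptors and adaptors, Igf2r, which clears IGF2, was 2.07-fold lower at 3 w than earlier (127 and 61.4 CPM at 3 d and 3 w), and Grb10, an adaptor that restrains the receptor, was 3.11-fold lower (280 and 90.1 CPM). Irs2, which links the receptor to PI3 kinase, was 3-fold higher (22.2 and 66.5 CPM). Ghr, the growth hormone receptor upstream of Igf1, was 24.2 CPM at 3 d, 54.2 at 3 w, 27.3 at 16 w, 24.1 at 78 w and 24.3 in the injured library, and so peaked at 3 w, when stromal Igf1 was already low. Of the forkhead factors restrained by IGF signalling, Foxo1 was 57.8 CPM at 3 w, 134 at 16 w and 57.1 in the injured library, whereas Foxo3 was 36.1, 47.7 and 104 CPM.

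Genes outside the pathway with the most similar pattern were ranked by the Pearson correlation of log2(CPM + 1) over 43 points of cell class and library, among 11541 genes. Points of 1 library share its depth and those of 1 class may share stromal RNA, so these are descriptions. For Igf1 they were Sfrp2, Cpxm1 and Mfap4 (0.832, 0.818 and 0.797), for Igf1r Ubn2, Cnbp and Senp6 (0.92, 0.919 and 0.916), and for Igfbp2 Agtr2, Slc38a4 and Sapcd1 (0.939, 0.938 and 0.906). For Igfbp3 they were Fat4, Meox1 and Hmcn1 (0.832, 0.776 and 0.763) and for Igfbp4 Gtf3a, Pycrl and Adamts10 (0.842, 0.836 and 0.836). Igfbp5 was most like Sod3, Fn1 and Gfpt2 (0.862, 0.853 and 0.85), Igfbp6 like Fbln7, Sfrp4 and Ackr3 (0.893, 0.882 and 0.881), and Igfbp7 like Nr2f2, Nudt4 and Dlc1 (0.885, 0.835 and 0.811).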

How the data were processed

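Discs had been digested with Pronase and Collagenase P and sequenced as 3′ libraries on the 10x Genomics platform. The authors deposited a matrix of UMI counts per library, as whole numbers without any scaling. The submitters' notes give Cell Ranger 3.1 and mm10, and the headers of the deposited count files give Cell Ranger 4.0.0. Groups were taken from the labels, since 1 file name gives another age than the 78 w of its label.

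Retained cells had over 200 UMIs, of which no more than 30% were mitochondrial. Cells were clustered in Seurat 5.3.0 (R 4.3.3, Matrix 1.6.5) after integration over 30 dimensions with 1983 features, the IGF genes left out, at a resolution of 0.2. Clusters were named from marker lists by a rule set after the clusters had been seen: a minimum of 3 markers reaching 2 times the median of the other clusters (5 CPM added), at least 50% of cells with a marker, and, outside the stroma, a mean log2 fold of at least 3 and a marker among the 10 leading genes. For stromal and lining names a mean of 1 was enough, and the lining name needed 3 leading markers. Cell types are thus rebuilt here and may differ from the study's. Doublets were kept, and leaving out the highest Scrublet scores (scanpy 1.11.5) was an alternative.

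UMIs were summed per class and library and given as CPM, with exact Poisson intervals, exact conditional intervals for ratios and Clopper-Pearson intervals for shares, at 95% (Python 3.11.15, numpy 2.4.6, scipy 1.17.1). With 1 library per condition no test was made. A gene was counted as past 2-fold only with at least 100 UMIs in the higher library. The precision of a level follows the depth of 31585993 to 125427849 UMIs per library. Alternatives were stricter cell filters, a resolution of 0.5, no integration, equal weight per cell or per stromal cluster, median-of-ratios scaling, and a 1.5-fold threshold. Each stromal cluster alone was an alternative chosen after seeing the data. Named genes are the 8 members, genes of the pathway list past 2-fold between stages in stromal cells, and the 3 genes most like each member; Igfbp1 was added. The members and lists were chosen with earlier results of these data known.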

Additional observations from a re-analysis of the deposited data

Results flagged for a closer look

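Against the direction in the stroma, 3 members were at least 1.5-fold apart the other way in another class, counting only pairs with at least 1.5-fold in the stroma too, both intervals clear of 1 and at least 100 UMIs in 1 of the libraries of that class. Differences in opposite directions below that size were more numerous, such as mural Igfbp5 at 78 w against 16 w (ratio 1.74, stromal ratio 0.797) and endothelial Igfbp7 at 3 w against 3 d (0.889, stromal ratio 3.55). Whether these differences exceed the spread between mice was not tested, since each condition is 1 library. The search ran over each member, each of several classes outside the stroma and each comparison of libraries. No share over all genes is set beside the number of members found, so nothing is read from that number.

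In mural cells Igfbp3 was 1.80-fold higher in the injured library than at 16 w (1.31 to 2.45), where the stromal ratio was 0.605. The injured value rests on 54 UMIs in 118 mural cells. At 16 w mural Igfbp3 lay below its stromal level, where the highest stromal marker gene reached 103.8% of its own. A level of the mural cells' own is thus not clear at 16 w. In synovial lining fibroblasts the ratio of Igfbp5 in the injured library to 3 w was 0.616 (0.585 to 0.649), where the stromal ratio was 3.08. In macrophages the ratio of Igfbp6 at 16 w to 3 w was 0.596 (0.474 to 0.745), where the stromal ratio was 1.60. Macrophage Igfbp6 was 79.7 CPM at 16 w (100 UMIs) and 134 CPM at 3 w (389 UMIs), against the levels of 133 and 120 CPM that stromal RNA would give.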

How the results depend on the processing

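Depth limits Igfbp2 after 3 d (31 to 257 stromal UMIs) and every value of the small classes in the injured library. No paired analysis was possible because each group is 1 library and no result comes from a test. Of 48 stromal ratios 27 passed 2-fold, and 22 of these did so under all 7 alternatives to the cells, the weights and the scaling. The other 5 were Igfbp2 and Igfbp3 for injured against 3 w (up to 0.59 and down to 1.62), Igfbp3 for 3 w against 3 d (0.9) and 78 w against 3 d, and Igfbp7 for 16 w against 3 w (0.509). The counts of members past 2-fold stayed within 1.5 times under these. With a 1.5-fold threshold, the injured library against 16 w had 5 members (45.4% of all genes). In cluster 2 alone the counts for 16 w against 3 w and for injured against 3 w were lower than in the pooled stroma, by more than 1.5 times. No share over all genes is set beside them, so nothing more is read from these counts. The ratio of Igfbp3 at 78 w to 3 d turned to 1.28 with equal weight for each stromal cluster. The causes were not tested.

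The same binding protein led each library under these 7 alternatives, but not in cluster 1 alone at 3 d (Igfbp7) or cluster 3 alone at 78 w (Igfbp6). Its share with equal weight for each stromal cluster was 38.2%, 59.8%, 47.7%, 38.7% and 46.9% (3 d, 3 w, 16 w, 78 w, injured). In the same order, equal weight for every cell gave 38.3%, 63.8%, 58.5%, 49.9% and 46.2%. Without integration the 4 normal libraries had 37.8%, 65.3%, 57.2% and 47.7%. At a resolution of 0.5 they were 65.8% at 3 w, 56.9% at 16 w, 47.2% at 78 w and 47.8% in the injured library. Leaving out the highest doublet scores gave 56.9% at 16 w and 47.4% at 78 w.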

Other observations

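At a finer clustering (resolution 0.5) stromal Igf1 and Igfbp5 were concentrated in different cells. Igf1 was highest at 3 w, at 16 w and in the injured library in an adventitial-type fine cluster led by Pi16, Mfap5 and Clec3b, with 850 CPM at 3 d, 269 at 3 w, 145 at 16 w, 289 at 78 w and 1273 in the injured library. At 78 w a tendon-type fine cluster of 282 cells was above it, with 326 CPM. A fine cluster of 203 cells led by interferon-induced genes (Ccl5, Ifit1 and Rsad2), of which 181 cells were in the 3 d library, had 1117 CPM of Igf1 at 3 d. Igfbp5 was highest in a stromal fine cluster led by Aoc2, Slurp1 and Inhba, at 1684 CPM at 3 d, 2425 at 3 w, 6357 at 16 w, 4891 at 78 w and 5289 in the injured library. Igf1 in those cells was 107, 10.4, 8.37, 9.03 and 28.5 CPM.

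All 24 Igfbp2 UMIs of endothelial cells at 78 w came from 1 cell of 675, against 38 UMIs in all 8331 stromal cells of that library. The small number of Schwann cells at 3 d (41 cells) had an Igf1r level of 162 CPM (119 to 217), against 67.8 in stromal cells.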
